A study of Canis lupus familiaris with 4 samples.

Results

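The epidermal growth factor (EGF) receptor family and its ligands were followed in P114 and CMT-U27, 2 lines of canine mammary cancer from which stem-like cells had been sorted. The set was listed by symbol: the receptors EGFR, ERBB2, ERBB3 and ERBB4 and the ligands EGF, AREG, EREG, HBEGF, TGFA and NRG1. Every array probe whose gene name in the files, or whose description in brackets, gave one of these symbols was taken. That found 17 of 43603 probes, for 8 of the 10 genes; AREG and TGFA had no probe by this rule. Of the 17 probes 13 could be tested, among 28694 tested probes in all, for 6 genes: EGFR, ERBB2, ERBB3, EREG, HBEGF and NRG1.

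The sort took cells that carried the surface proteins Sca1, EpCAM and CD44 together, and they were kept to day 3 with tumour-associated macrophages (co-culture) or alone (single culture). Each line gave 2 arrays, and each array carried both cultures in different dyes, which were exchanged between the arrays. The arrays are called biological replicates in the labels, with no statement of separate RNA extracts, so p-values measure only the spread between these samples, which may be technical. Each line is 1 established cell line, the source of the macrophages was not given, and whether they were removed before RNA isolation was not given either.

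The EGF receptors are membrane tyrosine kinases that signal as dimers. EGF, AREG, TGFA, EREG and HBEGF bind EGFR, the last pair also ERBB4, NRG1 binds ERBB3 and ERBB4, and ERBB2 has no known ligand of its own but is the favoured partner of the others. The ligands are made as membrane proteins and released by ADAM proteases, and the active receptors feed the RAS-MAPK and PI3K-AKT cascades. In mouse mammary tumours, macrophages are known as a source of EGF for tumour cells that in turn make CSF1, and ERBB2 is amplified in a share of human breast cancers.

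A choice of probes of the 6 tested genes is shown first, to give the stretch of each transcript that they read; HBEGF probe 1 and EGFR probe 3 also carry results and are not printed. Probes of a gene are numbered by brightness, the brightest being probe 1. All are 60 bases long and are printed 5′ to 3′ as in the deposited files; no base is set in capitals because none is singled out. Positions are those of the array design on CanFam3.1. EREG probe 1 lies at chr13:62876981-62877040 on the plus strand. NRG1 probe 1 lies at chr16:31706879-31706938 and NRG1 probe 2 at chr16:31849649-31852283, both on the minus strand. The span of NRG1 probe 2 is longer than the probe itself, so it joins pieces of the genome that are apart. EGFR probe 1 lies at chr18:6041565-6041624 and EGFR probe 2 at chr18:6037700-6037759, on the plus strand. HBEGF probe 2 lies at chr2:35553229-35553288 and ERBB2 probe 1 at chr9:22761253-22761312, on the minus strand, and ERBB3 probe 1 at chr10:413882-413941 on the plus strand. Each printed probe reads through without a stop codon in at least 1 forward frame; whether a probe lies in coding sequence or a UTR was not annotated in the sources used here.
EREG probe 1: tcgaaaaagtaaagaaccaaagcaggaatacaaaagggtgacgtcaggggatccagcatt
NRG1 probe 1: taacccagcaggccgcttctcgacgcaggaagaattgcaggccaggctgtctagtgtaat
NRG1 probe 2: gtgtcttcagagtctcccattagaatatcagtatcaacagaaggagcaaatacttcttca
EGFR probe 1: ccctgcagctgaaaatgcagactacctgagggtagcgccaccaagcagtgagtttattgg
EGFR probe 2: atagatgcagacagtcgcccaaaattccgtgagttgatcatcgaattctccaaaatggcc
HBEGF probe 2: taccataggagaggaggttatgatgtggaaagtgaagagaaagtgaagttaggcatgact
ERBB2 probe 1: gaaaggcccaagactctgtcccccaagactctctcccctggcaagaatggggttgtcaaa
ERBB3 probe 1: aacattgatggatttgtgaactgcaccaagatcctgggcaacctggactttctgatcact

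On P114 replicate 1, 89.4% of the Cy3 and 91.7% of the Cy5 spots were called well above background, against 57.9% to 65.7% in the channels of the other 3 arrays, and no spot was saturated. A probe seen above background on P114 replicate 1 alone is therefore named as such. After turning every ratio to co-culture over single culture by the dye label of each channel, the P114 arrays correlated at -0.15 over all tested probes and the CMT-U27 arrays at 0.05. In the file headers both P114 arrays shared one scan date entry and both CMT-U27 arrays another. Line and scan date therefore cannot be told apart, while ratios within an array do not involve that difference. The labelled epithelial type was checked on EPCAM, KRT5, KRT14, KRT18, KRT19 and CDH1: all 6 were well above background in all 8 channels. Of 5 fibroblast markers, 5 were above background on P114 replicate 1 and 4 on P114 replicate 2. On CMT-U27 replicates 1 and 2 it was 4 and 3. Detection alone therefore does not set these types apart. Of 16 macrophage markers, 16 were above background in both channels of P114 replicate 1 and 3 in both channels of P114 replicate 2. On the CMT-U27 arrays 2 and 3 were above background in single culture and 4 and 4 in co-culture. CD14 and CD68 were above background in all 8 channels, while CSF1R, PTPRC and ITGAM were above it only on P114 replicate 1.

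NRG1 was 28.6-fold and EREG 5.59-fold lower in CMT-U27 than in P114 in single culture, and both passed the test. NRG1 was dim in CMT-U27, so the size of its fold is uncertain. For EGFR, 2 of its 4 probes passed as higher in CMT-U27, but its brightest probe did not pass (adjusted p = 0.296, limma). The dimmer of the passing EGFR probes lost its call in 5 of 12 alternatives of the processing. HBEGF, the third tested ligand, did not pass between the lines. In co-culture no member passed the test over all probes, and the widest ratios were those of EREG, lower, and HBEGF, higher, both in P114. The levels below are log2 intensities after loess and Aquantile normalization, and they are compared only within a probe.

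**Figure D1:**
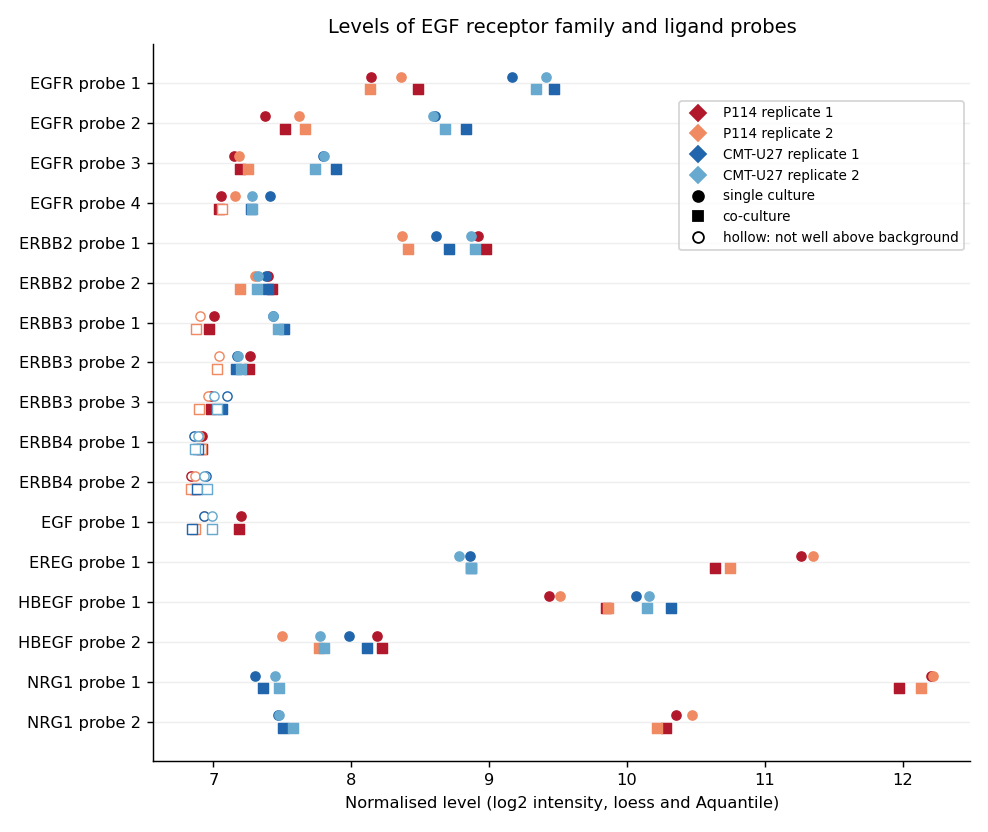
Normalised level (log2 intensity, x axis) of all 17 member probes in each of the 8 channels. Colours mark the arrays, circles single culture, squares co-culture, and hollow symbols values not well above background. NRG1 and EREG probes stand apart by line, while ERBB4 and EGF lie near the left edge with mostly hollow symbols.

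EGFR, the receptor shared by most of the ligands, was read by 4 probes. EGFR probe 1 stood at 8.14 and 8.36 in P114 single culture and at 8.48 and 8.14 in P114 co-culture. In CMT-U27 it stood at 9.17 and 9.41 in single culture and at 9.47 and 9.34 in co-culture. The channels of the lines did not overlap, whereas those of the cultures overlapped within each line. The co-culture log2 ratios of EGFR probe 1 were 0.34 and -0.22 on the P114 arrays and 0.31 and -0.07 on the CMT-U27 arrays. The arrays of each line thus lay on opposite sides of 0. The mean ratio was 0.06 ± 0.40 (SD, n = 2 arrays) in P114, with a 95% interval of -0.46 to 0.57, and 0.12 ± 0.26 in CMT-U27, with an interval of -0.40 to 0.63. EGFR probe 2 was above 0 on all 4 arrays, with log2 ratios of 0.14 and 0.04 in P114 and 0.22 and 0.09 in CMT-U27, and did not pass the test in either line (adjusted p = 0.881 and 1.00, limma). The means of probes 3 and 4 lay between -0.07 and 0.05 in both lines.

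ERBB2, the partner receptor without a ligand, was well above background in all 8 channels by both of its probes. ERBB2 probe 1 stood at 8.92 and 8.37 in P114 single culture and at 8.98 and 8.41 in P114 co-culture. In CMT-U27 it stood at 8.61 and 8.87 in single culture and 8.71 and 8.90 in co-culture. The P114 arrays lay further apart from each other than the cultures did, and the ranges of both lines overlapped. Its co-culture log2 ratios were 0.06 and 0.04 in P114 and 0.10 and 0.03 in CMT-U27. The 95% interval of the mean ran from -0.13 to 0.23 in P114 and from -0.11 to 0.25 in CMT-U27, and probe 2 had means of -0.04 and 0.00.

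ERBB3, which binds neuregulins and signals mainly through its partners, was close to background. ERBB3 probe 1 was above background in all 4 CMT-U27 channels, at 7.43 and 7.43 in single culture and 7.51 and 7.47 in co-culture. In P114 it was above background on replicate 1 only, at 7.01 in single culture and 6.97 in co-culture; the replicate 2 values were 6.90 and 6.87. Its log2 ratios were -0.04 and -0.03 in P114 and 0.08 and 0.04 in CMT-U27. The lines differed by 0.09, with a 95% interval of -0.16 to 0.34 and an unadjusted p of 0.359 (limma). ERBB3 probe 2 had ratios of -0.01 and -0.01 in P114 and -0.01 and 0.02 in CMT-U27, and probe 3 was above background in 3 of 8 channels and was not tested. ERBB4, the second neuregulin receptor, was not well above background in any channel by its probe 2 (0 of 8). Its probe 1 was above background in 2 of 8 channels, both on P114 replicate 1, so ERBB4 was not tested.

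EREG encodes epiregulin, a ligand of EGFR and ERBB4 that is shed from the membrane. EREG probe 1 stood at 11.26 and 11.35 in P114 single culture and at 10.64 and 10.74 in P114 co-culture. In CMT-U27 it stood at 8.86 and 8.78 in single culture and at 8.87 and 8.86 in co-culture. The P114 cultures did not overlap, and both P114 cultures lay above all 4 CMT-U27 channels, which spanned 8.78 to 8.87. The co-culture log2 ratios were -0.62 and -0.60 on the P114 arrays and 0.01 and 0.08 on the CMT-U27 arrays. In P114 the mean was -0.61 ± 0.01 (SD, n = 2 arrays), or 1.53-fold lower, with an SE of 0.06 in the fit and a 95% interval of -0.79 to -0.43. The unadjusted p was 0.000869 and the adjusted p 0.797 (limma, Benjamini-Hochberg over 28694 probes), so the ratio did not pass the test. In CMT-U27 the mean was 0.04 ± 0.05, with an interval of -0.14 to 0.22. The difference between the lines was 0.66 (95% interval 0.40 to 0.91, unadjusted p = 0.00237, adjusted p = 1.00 in limma) and did not pass either. EREG ranked 69 from the lowest of 28694 P114 means, and it was one of 16 probes (0.0558%) below -0.5 on both P114 arrays. That cut-off was not part of the planned comparisons, so the share is a description and no test. Where arrays were only centred on their median, without loess, EREG stood at -0.21 in P114 and the median of all probes at 0.16. In these bulk samples fewer cells of a type and less RNA per cell cannot be told apart.

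HBEGF encodes heparin-binding EGF-like growth factor, also a ligand of EGFR and ERBB4. HBEGF probe 1 stood at 9.43 and 9.51 in P114 single culture and at 9.85 and 9.86 in P114 co-culture. In CMT-U27 it stood at 10.06 and 10.16 in single culture and at 10.32 and 10.15 in co-culture. The P114 cultures did not overlap, those of CMT-U27 did, and every CMT-U27 channel was above every P114 channel. Its log2 ratios were 0.42 and 0.35 on the P114 arrays and 0.25 and -0.01 on the CMT-U27 arrays. The P114 mean was 0.38 ± 0.05, or 1.31-fold, with an unadjusted p of 0.0126 and an adjusted p of 0.797 (limma), and it did not pass the test. HBEGF probe 1 was one of 88 probes (0.307%) above 0.3 on both P114 arrays. This cut-off was not planned either and is not the one used for EREG, so the share is no test. HBEGF probe 2 was dimmer and gave 0.03 and 0.27 in P114 and 0.13 and 0.03 in CMT-U27, so both probes were above 0 on both P114 arrays, while the size differed between them. The CMT-U27 mean of probe 1 was 0.12 ± 0.19, and the difference between the lines was -0.26 with an interval of -0.61 to 0.08.

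NRG1 encodes neuregulin 1, the ligand of ERBB3 and ERBB4. NRG1 probe 1 stood at 12.20 and 12.22 in P114 single culture and at 11.97 and 12.13 in P114 co-culture. In CMT-U27 it stood at 7.30 and 7.45 in single culture and at 7.36 and 7.48 in co-culture. It was called well above background in all 4 of these channels but was dim. Its raw signals there, 62.2 to 104.8, lay near the channel medians of 64.5 to 100.9. The lines lay far apart, the P114 cultures did not overlap, and those of CMT-U27 did. The log2 ratios were -0.23 and -0.09 in P114 and 0.06 and 0.03 in CMT-U27 by probe 1, and -0.07 and -0.25 in P114 and 0.04 and 0.10 in CMT-U27 by probe 2. Both probes thus gave a P114 mean of -0.16, with intervals of -0.35 to 0.02 for each, and neither passed the test (adjusted p = 0.800, limma). Median centring without loess put the P114 mean of probe 1 at 0.26. EGF itself was above background in 2 of 8 channels, both on P114 replicate 1, and was not tested. A probe described in the files as transforming growth factor alpha, without a symbol, was found by its description after the rule had been applied; it was above background in all 8 channels and had mean log2 ratios of -0.06 in P114 and 0.03 in CMT-U27.

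**Figure D2:**
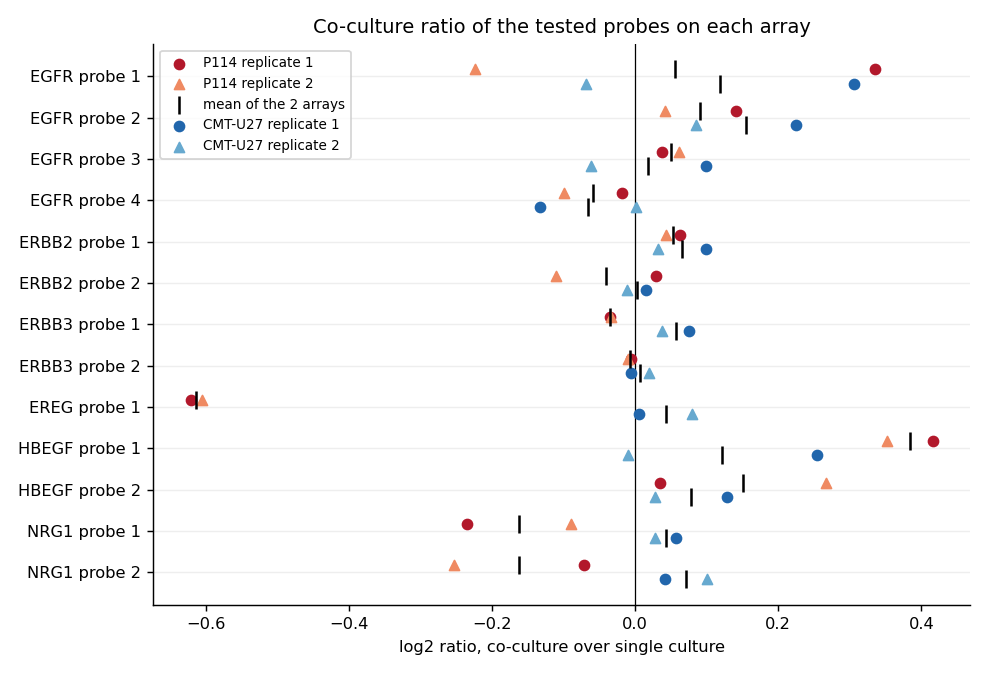
Log2 ratio of co-culture over single culture (x axis) of the 13 tested member probes on each array. Circles are replicate 1, triangles replicate 2, red tones P114, blue tones CMT-U27, and black bars the mean of the 2 arrays of a line. The P114 points of EREG lie near -0.6 and those of HBEGF probe 1 near 0.4. The other points lie closer to 0, out to 0.34 for EGFR probe 1 on P114 replicate 1.

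Counted over probes, the co-culture ratio was above 0 on both P114 arrays for 5 of the 13 member probes and below 0 on both for 6, against 25.1% and 18.2% of all tested probes. In CMT-U27, 7 of 13 were above 0 on both arrays and 0 of 13 below, against 37.4% and 13.2%. Several of these probes share a gene and are not independent. In P114, 0 of 13 passed an adjusted p of 0.05, as did 0% of all probes, and 2 of 13 had an unadjusted p under 0.05, namely EREG, lower, and HBEGF probe 1, higher. Over all probes 3.78% were higher and 2.34% lower at that unadjusted level. In CMT-U27, 0 of 13 had an adjusted or an unadjusted p under 0.05, against 0% adjusted and against 2.31% higher and 0.924% lower unadjusted. All 13 means in CMT-U27 lay between -0.07 and 0.15. Median centring without loess, which put the median of all CMT-U27 probes at 0.68, gave 1.33 for HBEGF, 1.18 for EGFR, 0.96 for ERBB2 and 0.96 for EREG in CMT-U27. These 4 then passed, as did 17343 of all 28694 tested probes, 17025 of them higher. For the mean of both lines 0% of probes passed, and for the difference between lines 0% passed and 2.06% had an unadjusted p under 0.05 towards a higher ratio in CMT-U27, with EREG the only member among them. The median of the 13 probes was -0.01 in P114 and 0.06 in CMT-U27, beside 0.01 and 0.02 over all tested probes.

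**Figure D3:**
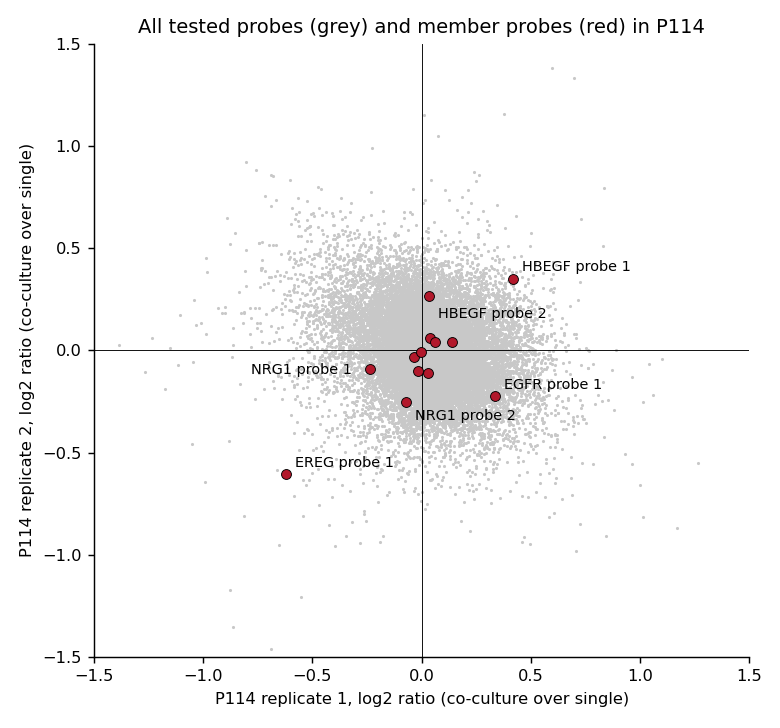
Log2 ratio of co-culture over single culture on P114 replicate 1 (x axis) and replicate 2 (y axis). Each grey point is 1 of 28694 tested probes, 66 of which lie outside the axes, and red points are the 13 member probes. EREG lies in the lower left and HBEGF probe 1 in the upper right, apart from most probes, while EGFR probe 1 has opposite signs on the arrays.

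Macrophage marker levels were followed beside these ratios. The summed linear level of the 16 macrophage markers was 3212 in single culture and 3248 in co-culture on P114 replicate 1, and 2651 and 2539 on replicate 2. On the CMT-U27 arrays it was 2744 and 2840 on replicate 1 and 2939 and 3011 on replicate 2. Most of these markers were not above background outside P114 replicate 1. Summed over those that were, the level was 1007 and 909 on P114 replicate 2, 975.3 and 1357.4 on CMT-U27 replicate 1, and 1332 and 1544 on CMT-U27 replicate 2, over the 2 to 4 markers that each channel detected. In P114, in which the EREG and HBEGF ratios were widest, the sum over all 16 differed more between the arrays than between the cultures. The summed level of the 6 epithelial markers was lower in co-culture on both P114 arrays, 17179 against 20148 and 17797 against 19998. On the CMT-U27 arrays it was 131090 against 122653 and 116053 against 137193. The P114 shift of the epithelial markers had the direction of the EREG ratio and the opposite direction to that of HBEGF probe 1. Its part in either ratio was not tested.

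For the lines in single culture, each channel entered one fit as a level of its own, and 15.2% of all tested probes passed an adjusted p of 0.05, 8.23% higher and 6.97% lower in CMT-U27. Of the 13 member probes 5 passed, 2 higher and 3 lower. EGFR and NRG1 gave 2 of these probes each, so the probes are not independent. By the brightest probe, only EREG and NRG1 passed among the 6 tested genes, beside 18% of the brightest probes of all symbols. NRG1 probe 1 differed by -4.84 log2 units (SE 0.15, adjusted p = 0.000160, limma), or 28.6-fold lower in CMT-U27 with a 95% interval of 22.2- to 36.8-fold, and ranked 22 from the lowest of 28694 probes. NRG1 probe 2 stood at 10.36 and 10.47 in P114 and at 7.47 and 7.48 in CMT-U27, which gave 7.69-fold lower (-2.94, SE 0.14, adjusted p = 0.000376). The intervals of the probes did not overlap, the second being 6.03- to 9.80-fold. EREG was 5.59-fold lower in CMT-U27 (-2.48, SE 0.14, interval 4.42- to 7.05-fold, adjusted p = 0.000527). Differences of 2 log2 units or more in this direction were found in 1.19% of all probes. With the channels scaled to a common median in place of Aquantile, NRG1 probe 1 stood at -4.91 and EREG at -3.10, and neither passed (adjusted p = 0.240 and 0.448). None of all tested probes passed with that scaling. Without background correction the NRG1 differences were wider than the intervals above, at -5.67 for probe 1 and -3.68 for probe 2. NRG1 probe 1 was dim in CMT-U27, so the size of its fold is uncertain.

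EGFR was higher in CMT-U27 by each probe, but only the probes 2 and 3 passed. Probe 2 stood at 7.38 and 7.62 in P114 and at 8.61 and 8.59 in CMT-U27, or 2.15-fold higher (SE 0.20 in log2 units, interval 1.53- to 3.00-fold, adjusted p = 0.0184, limma). With the channels scaled to a common median, by which none of all tested probes passed, probe 2 stood at 0.51 and did not pass (adjusted p = 0.831). Without background correction probe 2 stood at 1.60. Probe 3 was 1.55-fold higher (adjusted p = 0.0423), and its call was lost in 5 of 12 alternatives. The brightest, probe 1, was 2.05-fold higher with a wide interval of 0.781- to 5.39-fold (adjusted p = 0.296, limma). Its log2 difference ranged from 0.36 to 1.35 over 12 alternatives. The dimmest, probe 4, was 1.18-fold higher (adjusted p = 0.295). ERBB3 probe 1 entered the test only through CMT-U27, since in P114 it was above background on replicate 1 alone. Its difference of 0.48 log2 units (adjusted p = 0.0601) is therefore set against P114 values near background, and it was 0.89 without background correction. ERBB2 differed by 0.10 log2 units at probe 1, with an interval of -0.46 to 0.65, and by 0.00 at probe 2, with an interval of -0.41 to 0.41. Differences within those bounds were not excluded. The P114 arrays decided the value at probe 1, which was 0.36 without P114 replicate 1 and -0.16 without P114 replicate 2. HBEGF probe 1 was 1.56-fold higher in CMT-U27 (interval 1.05- to 2.30-fold, adjusted p = 0.132, limma) and did not pass. Its log2 difference ranged from -0.19 to 0.74 over 12 alternatives. HBEGF probe 2 differed by 0.04 (interval -0.55 to 0.63). The epithelial markers moved with the line as well, their summed level being 19998 to 20148 in P114 and 122653 to 137193 in CMT-U27 in single culture. The sum of 5 fibroblast markers was 20726 to 21952 in P114 and 3431 to 3667 in CMT-U27, but only COL1A2 passed among them (-2.79, adjusted p = 0.000402, named after its value was seen), and the median difference of the 5 was -0.21. The part of either in these differences was not tested.

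**Figure D4:**
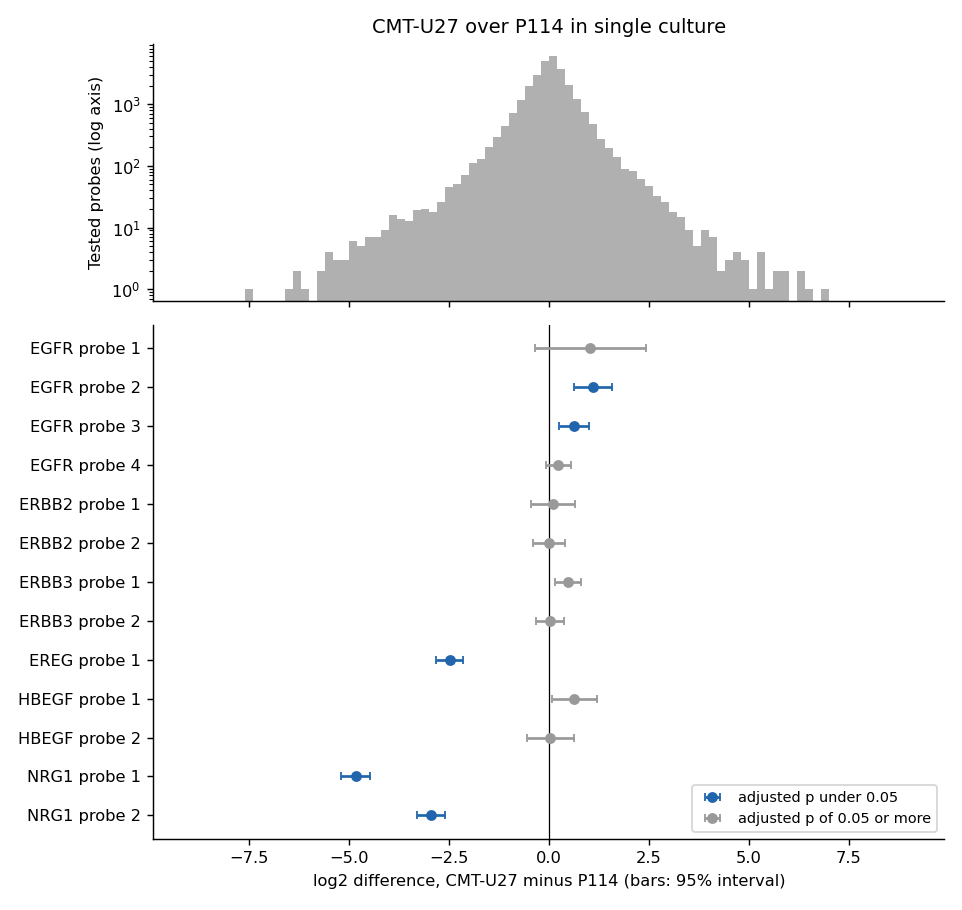
Upper panel, number of tested probes (log axis) by log2 difference of CMT-U27 minus P114 in single culture. Lower panel, the same difference for the 13 member probes with its 95% interval on the shared x axis, blue where the adjusted p was under 0.05. Both NRG1 probes and EREG lie in the left tail, and the EGFR probes lie right of 0.

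The other genes of the pathway were taken from lists of ligands, shedding proteases, adaptors, the RAS-MAPK and PI3K-AKT cascades, feedback inhibitors, ERK-responsive targets and CSF1 with its receptor. Of 87 listed genes, 77 had a probe and 75 could be tested. In co-culture 0 of 75 passed in either line. At an unadjusted p under 0.05, 4 were higher and 2 lower in P114, and 3 were higher and 1 lower in CMT-U27. Over all probes the shares were 3.78% and 2.34% in P114 and 2.31% and 0.924% in CMT-U27, so these counts lay near the background. The median over the 75 genes was -0.0039 in P114 and 0.04 in CMT-U27. Among the widest, PLAUR, the urokinase receptor gene and an ERK-responsive target, had log2 ratios of 0.45 and 0.46 on the P114 arrays and 0.07 and -0.03 on the CMT-U27 arrays. FOS, an immediate early gene, was below 0 on all 4 arrays, at -0.20 and -0.74 in P114 and -0.36 and -0.36 in CMT-U27. MYC stood at -0.60 and -0.31 in P114 and at -0.13 and 0.29 in CMT-U27. ERRFI1, which binds and inhibits EGFR, stood at 0.40 and 0.12 in P114 and at -0.16 and 0.25 in CMT-U27. The lowest adjusted p of these genes in either line was 0.797 (limma). With median centring in place of loess, which put the median of all CMT-U27 probes at 0.68, FOS stood at 1.01 in CMT-U27.

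Between the lines 18 of the 75 pathway genes passed, 8 higher and 10 lower in CMT-U27, or 24%, beside 18% of the brightest probes of all symbols (1807 of 10048). Of the 2 tested ligands outside the set, EPGN, which encodes epigen, was lower in CMT-U27 (-1.05, adjusted p = 0.0217, limma). Of 8 tested shedding and maturation genes 2 passed, both lower: ADAM15 (-1.46, adjusted p = 0.00283) and ADAM17, the main sheddase of EGFR ligands (-1.01, adjusted p = 0.0124). Both ADAM genes were lower in the line in which EREG and NRG1 were lower, but 2 of 8 is set beside 18% over all symbols. A link between them was not tested, and ADAM10 was not among those that passed.

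Of 12 tested feedback inhibitors 3 passed, all lower in CMT-U27, and of 11 tested ERK-responsive targets 5 passed, beside the 18% of brightest probes over all symbols. The feedback inhibitors were DUSP6, a phosphatase of ERK that ERK signalling induces (-1.81, adjusted p = 0.00425), ERRFI1 (-1.02, adjusted p = 0.0126) and SOCS5, a suppressor of cytokine signalling that also targets EGFR (-0.93, adjusted p = 0.00776). Of the targets 3 were higher, namely EGR1 (3.38, adjusted p = 0.000218), FOS (2.80, adjusted p = 0.00564) and MCL1 (2.27, adjusted p = 0.000676), and 2 were lower, ETV5 (-1.15, adjusted p = 0.0133) and PLAUR (-0.97, adjusted p = 0.00873). PLAUR lies outside the naming rule for this list and was added after its value was seen.

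In the cascades, MAP2K1 (1.19, adjusted p = 0.0140, limma) and NRAS (0.92, adjusted p = 0.0318) were higher in CMT-U27 of 13 tested RAS-MAPK genes. PIK3R1, the regulatory subunit of PI3-kinase, was higher (1.19, adjusted p = 0.00435) of 12 tested PI3K-AKT genes. Among 16 tested adaptors and proximal genes, GAB1 (0.95) and PTPN11 (0.94), which act together below the receptors, were higher and EPS8 (-0.72), an EGFR substrate, was lower. The share that passed in each of these lists lay near or below the 18% of brightest probes over all symbols. CSF1, the macrophage growth factor, was lower in CMT-U27 (-1.37, adjusted p = 0.0244), and its receptor gene CSF1R was not tested. All the calls of pathway genes were lost when the channels were scaled to a common median, as was every call among all tested probes. The higher genes then stood closer to 0, such as EGR1 at 2.45, MCL1 at 1.24 and PIK3R1 at 0.36, and several lower ones further from it, such as DUSP6 at -2.75 and ERRFI1 at -2.02. EPS8 and CSF1 also lost their calls without the filter on dim probes (adjusted p = 0.0534 and 0.0546), and EPS8 without CMT-U27 replicate 2 (0.0673).

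**Figure D5:**
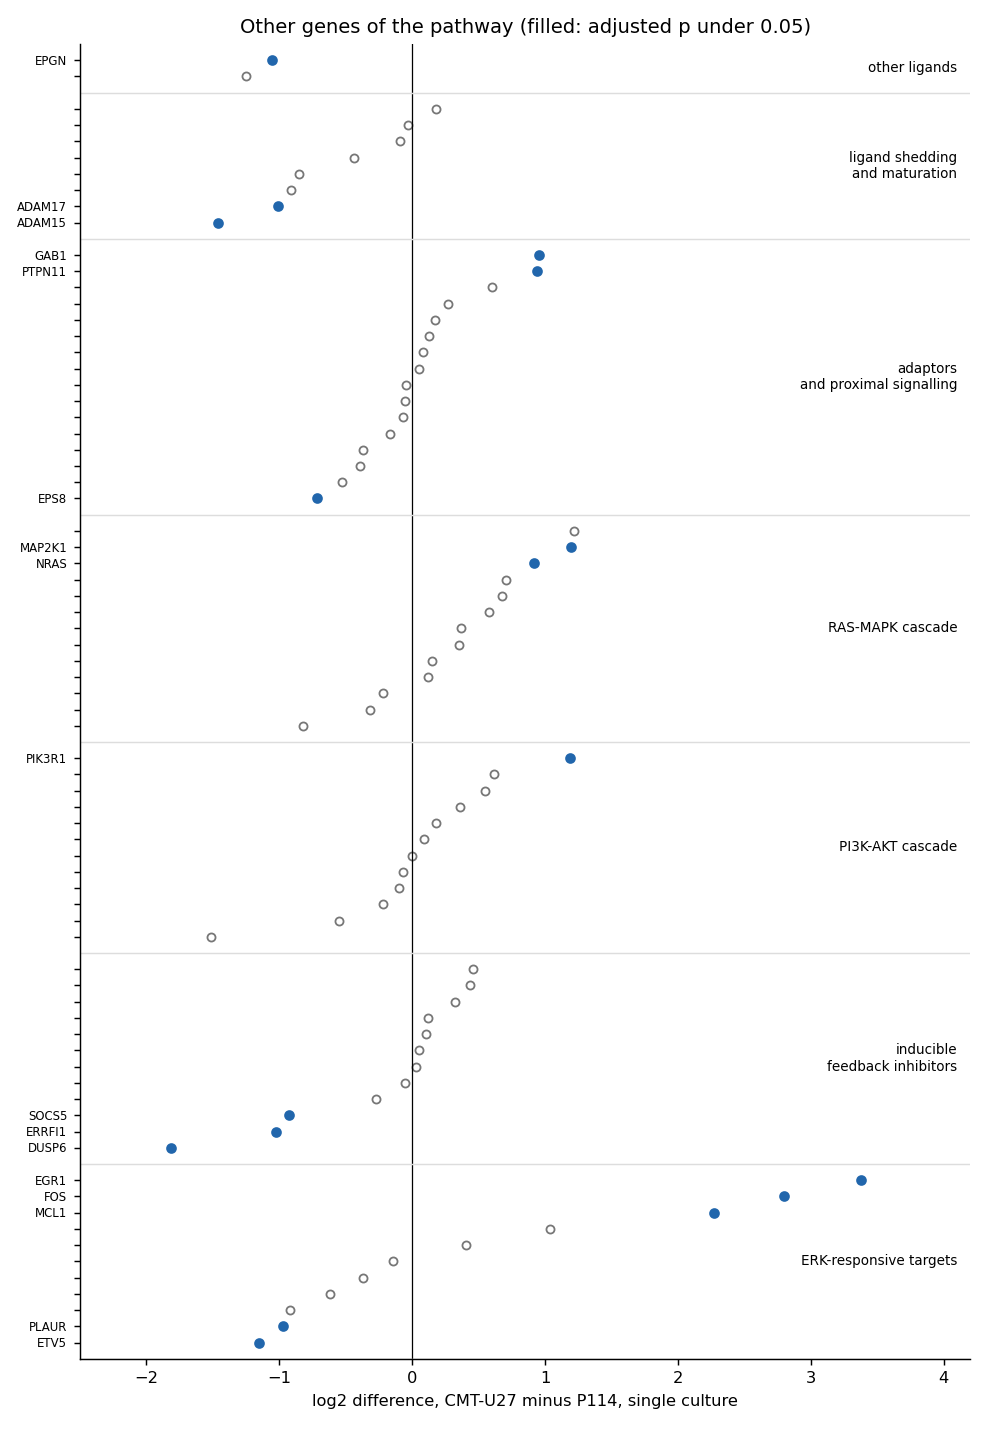
Log2 difference of CMT-U27 minus P114 in single culture (x axis) for the brightest tested probe of each pathway gene outside the set, CSF1 left out, grouped by list. Filled points have an adjusted p under 0.05, and only these are labelled. DUSP6, ADAM15 and ETV5 are the lowest filled points of their lists and EGR1, FOS and MCL1 lie furthest right.

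The genes most like the receptors over the 8 channels were found by Pearson correlation among 14225 probes with a symbol that were above background in all channels. For EGFR probe 1 they were RBFA (0.994), NUP88 (0.994) and VPS39 (0.994), and for ERBB2 probe 1 CSDC2 (0.989), EGR2 (0.976) and CRY1 (0.969). The 8 channels come from 4 arrays of 2 lines, so these values are a description of how levels followed the line and the array. ERBB3 and ERBB4 were not above background in all channels and were left out of this search.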

How the data were processed

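RNA of co-cultured and singly cultured cells was hybridised together on 4 two-colour Agilent arrays. The deposited scanner files hold linear intensities, read with Agilent Feature Extraction 10.10.1.1 per the file headers and 10.7.3.1 per the submitters' processing notes. The label protocol in the labels names a miRNA kit. The deposited series value table equals the scanner's log10 ratio of red over green, with median 0 in each column and no turning of dye swaps by the authors.

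Mean signals were corrected with normexp (offset 50) against the local median background and normalised by loess within each array in limma 3.58.1 (R 4.3.3, statmod 1.5.0). Figures used Python 3.11.15 and matplotlib 3.10.9. Log2 ratios, computed from the deposited intensities, were turned to co-culture over single culture by channel label. The record titles name only 1 culture, so if a line's dye labels were exchanged, all its ratios would change sign. A probe was kept where 1 line and culture or more had it well above background on each of its arrays (28734), 40 were lost to marked spots, and 28694 were tested with Benjamini-Hochberg adjustment at 0.05. The ratio fit had a coefficient for each line and a dye term and left 1 residual degree of freedom (2.76 prior). The lines were compared with a separate-channel fit after Aquantile (intraspot correlation 0.936). Intervals of 95% come from these fits. The small number of arrays limits the precision. The fits were tested on simulated data.

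Members and lists were chosen with earlier results of these data known. All member probes are named, and a gene is represented by its brightest tested probe. From each pathway list at most 4 genes per comparison, those with the largest ratio of the same sign on both arrays or the largest coefficient, could be named. Alternatives changed the background correction, normalization, filters, dye term and arrays included. No sample column was left unused (0). One pathway gene that the naming rule would give is not reported here.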

Additional observations from a re-analysis of the deposited data

Results flagged for a closer look

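For 3 genes both P114 arrays had a co-culture ratio below 0 and both CMT-U27 arrays one above 0. The difference of CMT-U27 minus P114 was 0.656 log2 units for EREG, 0.205 for NRG1 and 0.0911 for ERBB3. In limma none of these passed, each with an adjusted p of 1.00, and the unadjusted p was 0.00237 for EREG, 0.0937 for NRG1 and 0.359 for ERBB3. For ERBB3 this holds by probe 1 only, which was above background on P114 replicate 1 alone among the P114 arrays; probe 2 had ratios of -0.01 and 0.02 in CMT-U27 and a difference of 0.01. Under median centring the NRG1 difference was -0.16.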

How the results depend on the processing

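No paired analysis was possible because the replicate numbers are accession order and pair no samples across the lines; the cultures of an array were compared within it in every ratio. The slide could not be fitted as a block, since all arrays share 1 slide. Among probes passing the adjusted threshold, co-culture calls were 0 in P114, CMT-U27, their mean and their difference. Without background correction they were 12 in CMT-U27 and 1 for the difference. Under median centring they were 5 in P114, 17343 in CMT-U27, 16518 for the mean and 12449 for the difference, with the median of all probes at 0.16 in P114 and 0.68 in CMT-U27. Restricting to probes above background in all channels gave 1 in CMT-U27. An offset of 10, chosen after seeing the data, gave 4, 16, 13 and 7. Leaving out 1 array gave 0 to 64 in P114, 0 to 17 in CMT-U27 and 0 to 61 for the mean and the difference. The 64 and 61 arose without P114 replicate 2, and the 17 without CMT-U27 replicate 1. The line comparison called 4361 probes, 0 with channels scaled to a common median, 9385 without the dye term and 5597 to 17489 with 1 array left out, namely 13741 without P114 replicate 1, 17489 without P114 replicate 2, 6273 without CMT-U27 replicate 1 and 5597 without CMT-U27 replicate 2. These fits kept the intraspot correlation, and a lone array was assumed to vary like the others. The causes of the changes in these counts were not tested. In the ratio fits, a line left with a lone array took that array's own ratio, without adjustment for dye. Culture and dye cannot be told apart there. Co-culture counts and ranges that rest on a lone array therefore cannot be read as effects of co-culture.

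EREG in P114 stayed below 0 in all 14 alternatives (-0.67 to -0.21) and HBEGF above 0 (0.27 to 0.73). Several of these left the means as they were and add no support. Other filters, kept marked spots, no dye term and leaving out CMT-U27 replicate 1 kept EREG at -0.61 and HBEGF at 0.38. The series value table repeated the scanner log ratio. NRG1 and EREG differed between lines in the same direction in all 12, and lost the call only with common-median scaling. Under median centring EGFR, ERBB2, EREG and HBEGF passed in CMT-U27 and in the mean, and EREG (1.17, adjusted p = 0.0085, limma) and EGFR (0.93, adjusted p = 0.0159) in the difference. Of all 28694 probes, 17343 passed there in CMT-U27, 16518 in the mean and 12449 in the difference. Signs turned as follows. Median centring gave 0.26 for NRG1 and 0.15 for GRB2 in P114, 1.01 for FOS in CMT-U27, 0.37 for EREG and 0.18 for NRG1 in the mean, and 0.61 for HBEGF and -0.16 for NRG1 in the difference. Without background correction ERBB2 was -0.0165 and EREG -0.0254 in CMT-U27, ERBB3 -0.0033 in the mean, and EGFR -0.0453 and ERBB2 -0.0534 in the difference. The scanner log ratio and the series value table both gave ERBB2 -0.0573 and EREG -0.0263 in CMT-U27, NRG1 0.000296 in the mean, and EGFR -0.0419 and ERBB2 -0.138 in the difference. In the line comparison, common-median scaling gave ERBB2 -0.41, HBEGF -0.19, HBEGF probe 2 -0.11 and PTPN11 -0.0068, and the offset of 10 gave ERBB2 probe 2 -0.0121.
Leaving out 1 array gave the ranges EGFR in P114 -0.22 to 0.34, EGFR in the mean -0.053 to 0.23, EGFR in the difference -0.22 to 0.34, EGFR in CMT-U27 -0.069 to 0.31, HBEGF in CMT-U27 -0.0098 to 0.25, ERBB2 in the difference -0.021 to 0.047, ERBB2 between lines -0.16 to 0.36, ERBB2 probe 2 between lines -0.036 to 0.042, ERBB3 probe 2 between lines -0.095 to 0.14 and HBEGF probe 2 between lines -0.28 to 0.36.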

Other observations

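A probe described as betacellulin, another EGFR and ERBB4 ligand, carried no symbol and was above background in 2 of 8 channels, both on P114 replicate 1. It was not tested.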
